A study of Mus musculus with 12 samples.

Results

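Cyr61, Ctgf, Nov, Wisp1 and Wisp2 encode secreted matricellular proteins of the CCN family. They were picked by symbol, 5 of the 17471 genes listed in the deposited tables, and all 5 were among the 13678 genes with enough counts to be tested. These are the older symbols of Ccn1, Ccn2, Ccn3, Ccn4 and Ccn5. The remaining family gene, Wisp3 (Ccn6), had 0 to 2 expected counts in each library and is not described further.

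RNA of left ventricles was sequenced from mice 6 to 10 weeks old, 4 days after the left anterior descending artery had been tied off (myocardial infarction, MI) or a sham operation done. All mice, controls included, carried floxed alleles of Yap and were fed tamoxifen citrate after the operation. Cre-positive mice also held 1 copy of the tamoxifen-inducible recombinase MerCreMer in the Postn locus, under the locus's own promoter, while their Cre-negative siblings had an unmodified Postn locus. The 4 groups, Cre-positive MI, Cre-negative MI, Cre-positive sham and Cre-negative sham, held 3 libraries each. No group had the recombinase without floxed Yap, so the recombinase in the Postn locus and the deletion of Yap cannot be told apart here. The labels number the replicates and say nothing more of them, so p-values measure the spread between these samples.

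Proteins of the CCN family are built from small modules that resemble insulin-like growth factor binding proteins, von Willebrand factor repeats, thrombospondin repeats and a cysteine knot, and they act at the cell surface by binding integrins, heparan sulfate proteoglycans, low-density lipoprotein receptor-related proteins and growth factors. Cyr61 and Ctgf are standard targets of the Hippo pathway, in which the coactivator YAP binds TEAD transcription factors, and they also answer to TGF-beta and to serum response factor. Ctgf is a common marker of fibrosis in the heart, and Wisp1 and Wisp2 were first described as genes induced by Wnt signalling.

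By Entrez identifier Cyr61 is gene 16007, on the minus strand of mm10 chromosome 3 (145646971 to 145649985), and its longest coding sequence has 379 codons. Ctgf (14219) lies on chromosome 10 (24595442 to 24598683, plus strand) with 348 codons. Nov (18133, 54745910 to 54753762) and Wisp1 (22402, 66891369 to 66923201) both lie on the plus strand of chromosome 15, with 354 and 367 codons. Wisp2 (22403) lies on chromosome 2 (163820752 to 163833146, plus strand). It has 251 codons, and its protein lacks the cysteine knot module. Its coding sequence holds 29 cysteine codons, against 38 in Cyr61, 39 in Ctgf, 40 in Nov and 38 in Wisp1. Each of the 5 genes has 5 exons.

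The promoter of Cyr61 is shown because that gene is the family's reference target of YAP and TEAD, and because Yap is the gene deleted in this design. It was the only one of the 5 members with an entry in the RefSeq promoter table used (GRCm38.p6). The sequence covers the 250 bases before the start of the gene, chr3:145649986-145650235, minus strand, 5′ to 3′, and capitals mark the letters CATTCC, the core of the TEAD motif.
Cyr61 promoter: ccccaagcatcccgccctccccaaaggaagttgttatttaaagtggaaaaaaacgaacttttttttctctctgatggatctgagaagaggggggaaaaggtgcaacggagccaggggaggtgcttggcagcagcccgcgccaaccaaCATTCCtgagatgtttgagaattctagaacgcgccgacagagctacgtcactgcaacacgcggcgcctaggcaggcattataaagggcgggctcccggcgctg
Searched on both strands, CATTCC occurred once in this window, with its first base 103 bases upstream of the start, and in 12.6% of 32851 RefSeq promoter windows of the same length. TATAAA lay 25 bases upstream (12.4% of windows) and GGGCGG, the core of the SP1 motif, lay 239 and 19 bases upstream (32.7%). TGACG, a part of the cyclic AMP response element, lay 58 bases upstream (17.8%). CAGACA, TGACGTCA and TGANTCA, searched as the motifs of SMAD factors, of the full cyclic AMP response element and of AP-1, and the CArG box of serum response factor had 0 matches. TGACG is itself the start of TGACGTCA, and no matches in this window overlap.

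Total expected counts, the read estimates per gene, ranged between 10257675 and 15176286 per library. Yap1 itself had 91.1 to 93.9 CPM (counts scaled by the library's effective size, set by TMM) in Cre-positive MI and 84.6 to 96.4 CPM in Cre-negative MI libraries, and 102 to 121 CPM in Cre-positive sham and 114 to 116 CPM in Cre-negative sham libraries. Counts per gene cannot show whether the floxed exon is missing, and only cells that express Postn should have lost it. Cre-positive sham replicate 2 stood apart, with 34060 CPM of the slow myosin gene Myh7 against 376.6 to 2938 CPM in the remaining 5 sham hearts, and 14340 CPM of the fast myosin gene Myh6 against 39840 to 53140 CPM. Results that rest on that library are given with and without it. Y-linked genes were read at 10 CPM or more in 1 of 3 Cre-positive MI, 3 of 3 Cre-negative MI, 0 of 3 Cre-positive sham and 2 of 3 Cre-negative sham libraries. Sex, as read from these genes, thus ran largely with genotype, and sex and genotype cannot be fully told apart here.

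Per unit of transcript length, Ctgf was the most abundant member in all 12 libraries. It averaged 195 ± 28.3 FPKM (fragments scaled by transcript length and library size, SD, n = 3) in Cre-positive MI, 234 ± 33.95 FPKM in Cre-negative MI, 102 ± 56.2 FPKM in Cre-positive sham and 62.9 ± 13.6 FPKM in Cre-negative sham hearts, which placed it within the top 2.31%, 2.0%, 3.97% and 6.03% of listed genes. Cre-positive sham replicate 2 held 165.2 FPKM of Ctgf, against 85.2 and 56.79 FPKM in replicates 1 and 3 of that group. Cyr61 came next, at 47.8 ± 7.695, 72.8 ± 6.99, 23.05 ± 1.85 and 32.2 ± 8.03 FPKM in the same 4 groups. Wisp2 averaged 13.5 ± 1.39, 24.8 ± 2.96, 1.94 ± 0.372 and 4.42 ± 0.844 FPKM. Both Wisp genes were scarce in sham hearts. Wisp1 averaged 9.19 ± 0.184, 14.0 ± 0.438, 0.743 ± 0.110 and 0.870 ± 0.0794 FPKM. Nov, the member known best for opposing Ctgf, averaged 2.87 ± 0.609, 2.52 ± 0.766, 1.60 ± 0.201 and 1.43 ± 0.195 FPKM. After MI, Nov was thus the least abundant member in both genotypes, while in sham hearts Wisp1 had that place. The FPKM ranges of Nov and Wisp2 overlapped in Cre-positive sham hearts, and no other neighbours in this order overlapped within a group.

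**Figure D1:**
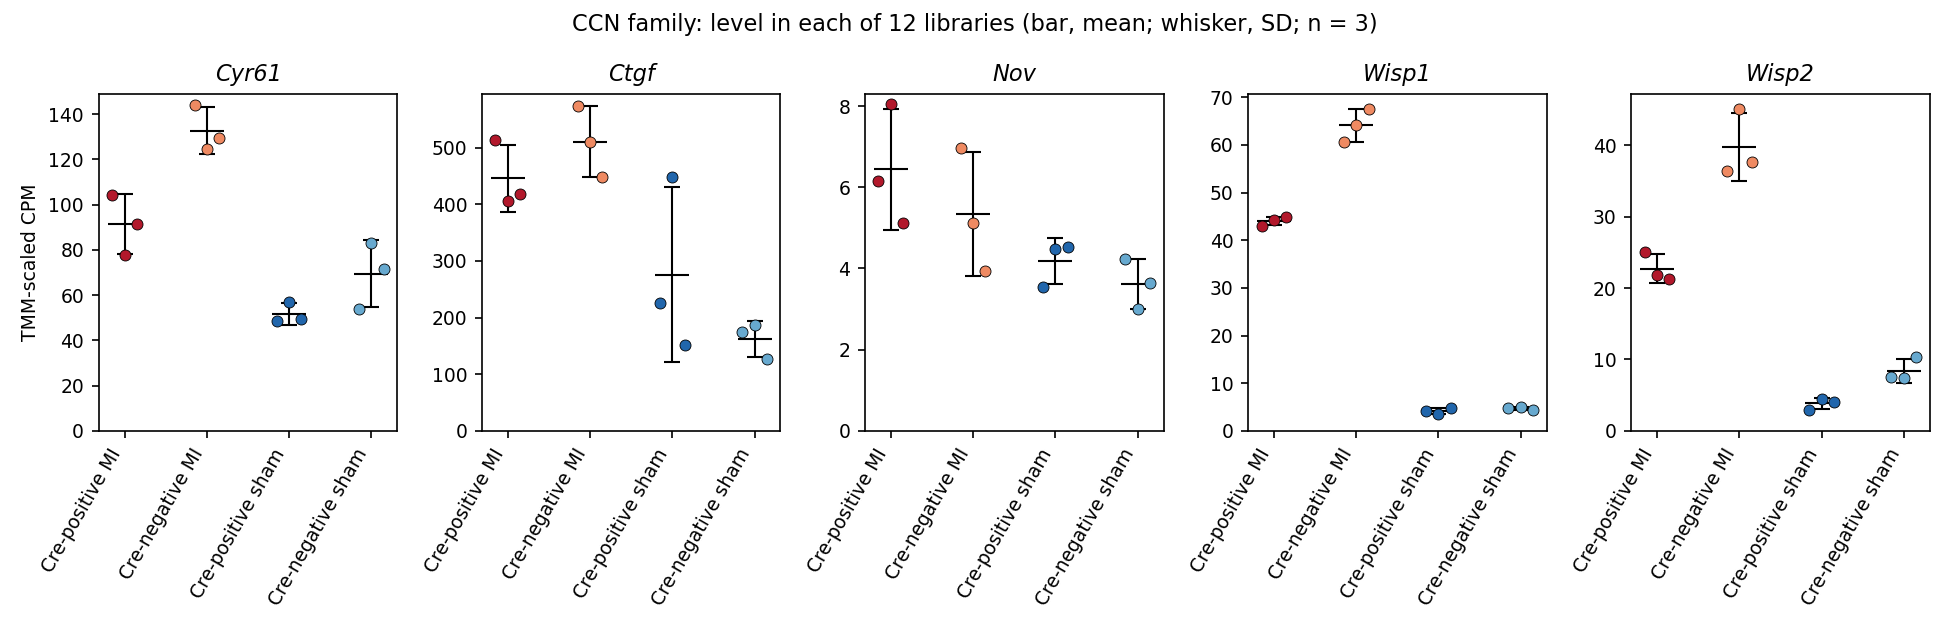
TMM-scaled CPM of each CCN gene (1 panel per gene, linear axes of different height) in every library of the 4 groups. Points are libraries, horizontal bars are means and whiskers are SDs over 3 libraries. Wisp1 and Wisp2 lie under 11 CPM in all sham libraries and above 21 CPM in all MI libraries, and 1 Cre-positive sham library holds 449 CPM of Ctgf.

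The first question was what infarction did to the family in hearts that carry the recombinase. Wisp1, Wisp2 and Cyr61 rose in Cre-positive hearts, 10.6-fold, 5.95-fold and 1.77-fold. Ctgf and Nov were 1.62-fold and 1.54-fold higher on average and did not pass the test. That made 3 of 5 members called, all higher, by edgeR's quasi-likelihood test at an adjusted p under 0.05, where 45.2% of all tested genes were called, 25.7% higher and 19.5% lower.

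Wisp1, a matrix-associated protein made by fibroblasts during repair, had 43.0, 44.2 and 44.8 CPM in Cre-positive MI libraries 1 to 3, against 4.18, 3.57 and 4.745 CPM in Cre-positive sham libraries. The groups were far apart and the MI libraries differed from each other by little (CV 2.07%). The log2 fold change was 3.40 ± 0.12 (SE, n = 3 per group, adjusted p = 7.5e-09). Wisp2 had 25.1, 21.8 and 21.3 CPM in Cre-positive MI and 2.98, 4.49 and 4.02 CPM in Cre-positive sham libraries. Again every MI library lay above every sham library, and the log2 fold change was 2.57 ± 0.18 (adjusted p = 8.09e-07). Behind the sham levels stood 39 to 52 expected counts of Wisp1 and 37 to 49 of Wisp2 per library.

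Cyr61, an early response gene whose protein binds integrins, had 104, 77.9 and 91.6 CPM in Cre-positive MI and 48.4, 57.2 and 49.6 CPM in Cre-positive sham libraries. The groups did not overlap, and the log2 fold change was 0.82 ± 0.16 (adjusted p = 0.00106). Ctgf had 513, 407 and 418 CPM in Cre-positive MI libraries, against 226, 449 and 152 CPM in Cre-positive sham libraries. Here the groups overlapped through Cre-positive sham replicate 2, the library rich in Myh7, which held more Ctgf than 2 of the 3 infarcted hearts. The log2 fold change of Ctgf was 0.69 ± 0.30 (95% interval 0.03 to 1.36, adjusted p = 0.0819). Without that library it was 1.195 ± 0.20 and was called (adjusted p = 0.000419), as were 4 of 5 members and 47.7% of all tested genes.

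Nov had 6.165, 8.06 and 5.11 CPM in Cre-positive MI and 3.54, 4.49 and 4.54 CPM in Cre-positive sham libraries. The 3 MI libraries lay above the 3 sham libraries, by a margin smaller than the spread within MI. Its log2 fold change was 0.62 ± 0.25 (95% interval 0.09 to 1.16, adjusted p = 0.0567). In all, 4 of 5 members had MI libraries wholly above sham libraries in Cre-positive hearts, as 29.3% of tested genes did. Nov rests on the fewest reads, 30.1 to 120 expected counts per library over the study, and without Cre-positive MI replicate 3, Cre-negative MI replicate 1 or Cre-negative MI replicate 3 it was called (adjusted p = 0.0399, 0.0399 and 0.046).

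The same question in hearts without the recombinase gave a rise in 4 of 5 members, Wisp1 (13.6-fold), Wisp2 (4.72-fold), Ctgf (3.14-fold) and Cyr61 (1.91-fold), where 54.3% of tested genes were called, 29.9% higher and 24.4% lower. Wisp1 had 60.5, 64.25 and 67.5 CPM in Cre-negative MI libraries, against 4.70, 4.99 and 4.435 CPM in Cre-negative sham libraries. No member separated the surgeries by more, and its log2 fold change was 3.76 ± 0.12 (adjusted p = 4.37e-09, the smallest for any member by this test). Wisp2 had 36.4, 45.1 and 37.7 CPM in Cre-negative MI libraries, against 7.53, 7.39 and 10.35 CPM in Cre-negative sham libraries. Its log2 fold change was 2.24 ± 0.17 (adjusted p = 6.94e-07), with no overlap.

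In Cre-negative MI libraries Ctgf had 573, 510.3 and 449 CPM, against 175, 187 and 126 CPM in Cre-negative sham libraries. Here every infarcted heart held more than 2 times the highest sham level, and the log2 fold change was 1.65 ± 0.31 (adjusted p = 0.000747). Cyr61 had 144, 125 and 129.5 CPM in Cre-negative MI libraries, against 53.7, 83.3 and 71.4 CPM in Cre-negative sham libraries. The groups did not overlap, and it rose by 0.94 ± 0.15 on the log2 scale (adjusted p = 0.00028). Nov had 6.96, 5.12 and 3.94 CPM in Cre-negative MI libraries, against 4.23, 2.995 and 3.65 CPM in Cre-negative sham libraries. Its groups overlapped, and its log2 fold change of 0.56 ± 0.25 (95% interval 0.01 to 1.11) did not pass the test (adjusted p = 0.0788), though it did without Cre-negative MI replicate 3 (0.73, adjusted p = 0.0328). Without overlap stood 4 of 5 members, as did 36.1% of tested genes in this direction.

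In the authors' deposited tables, where 29.5% of genes in Cre-positive hearts and 45% in Cre-negative hearts had an adjusted p under 0.05, Ctgf stood at a log2 fold change of 0.66 (adjusted p = 0.151) in Cre-positive and 1.63 (3.53e-26) in Cre-negative hearts. Nov stood there at 0.59 (adjusted p = 0.125) and 0.53 (0.173).

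In bulk tissue, more cells of a type and more RNA per cell cannot be told apart, and markers of several cell types moved with surgery. All 8 fibroblast markers were read, and their summed level was 7535 to 8580 CPM in Cre-positive MI, 9711 to 11010 CPM in Cre-negative MI, 919.2 to 1108 CPM in Cre-positive sham and 1381 to 1716 CPM in Cre-negative sham libraries. The 6 macrophage markers summed to 1285 to 1450, 1723 to 1889, 94.0 to 341.7 and 278 to 325 CPM in the same groups. By edgeR 7 of the 8 fibroblast markers rose after MI in each genotype, with medians of 1.17 in Cre-positive and 0.711 in Cre-negative hearts. Of all tested genes 25.7% and 29.9% rose, and 19.5% and 24.4% fell. Of the 7 myofibroblast markers 7 rose after MI in each genotype (medians 4.46 and 4.22 on the log2 scale, in Cre-positive and Cre-negative hearts), and so did the 3 tested adipocyte markers (medians 4.78 and 4.49). Of 7 endothelial markers 0 rose and 2 fell in Cre-positive hearts, and 1 rose and 2 fell in Cre-negative hearts. Of 7 smooth muscle and pericyte markers 2 rose and 2 fell in Cre-positive hearts, and 2 rose and 3 fell in Cre-negative hearts. The adipocyte markers summed to 5.09 to 137 CPM in Cre-positive MI, 24.75 to 48.4 CPM in Cre-negative MI, 1.44 to 2.75 CPM in Cre-positive sham and 1.08 to 2.07 CPM in Cre-negative sham libraries. The 7 cardiomyocyte markers that define the tissue summed to 54030 to 65110, 38110 to 52920, 58150 to 112300 and 90580 to 103000 CPM. Cre-positive sham replicate 2 gave that group's lowest fibroblast, macrophage and cardiomyocyte sums. Replicates 1 and 3 of that group held 104500 and 112300 CPM of cardiomyocyte markers. The part of these shifts in the rise of the CCN genes was not tested.

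**Figure D2:**
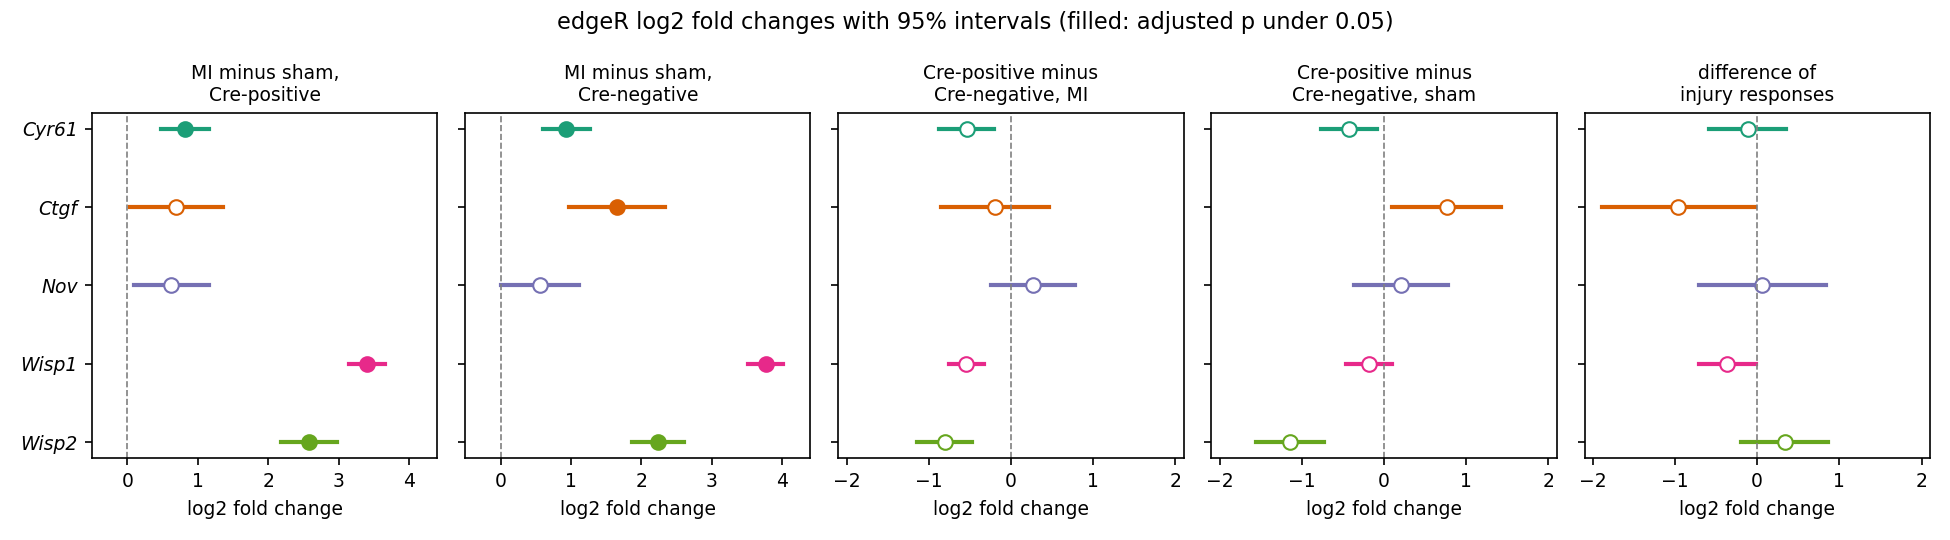
Log2 fold changes of the 5 CCN genes by edgeR with 95% intervals in 5 contrasts (1 panel each, horizontal axis in log2 units, dashed line at 0, filled points for an adjusted p under 0.05). The Wisp genes lie farthest right after MI in both genotypes, from 2.24 to 3.76, and no point is filled in the contrasts of genotype or in the difference of the injury responses.

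The next comparison asked whether infarcted hearts with the recombinase held other levels of the family than infarcted hearts without it. Cyr61, Wisp1 and Wisp2 were lower in every Cre-positive MI library than in every Cre-negative MI library, while Ctgf and Nov overlapped. Of all tested genes, 15.2% had Cre-positive MI libraries wholly below Cre-negative MI libraries. By edgeR's quasi-likelihood test 0 members were called, as were 0 of the 13678 genes (0%), although 12.6% of genes had an unadjusted p under 0.05.

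With the CPM values given above, Wisp2 averaged 22.7 ± 2.05 CPM in Cre-positive MI and 39.75 ± 4.72 CPM in Cre-negative MI libraries (SD, n = 3). That is a ratio of means of 0.571, and the log2 fold change was -0.81 ± 0.15 (95% interval -1.14 to -0.47, adjusted p = 0.202). Wisp1 averaged 44.0 ± 0.909 CPM in Cre-positive MI and 64.1 ± 3.49 CPM in Cre-negative MI libraries. The gap between the groups, at a ratio of 0.687, exceeded the spread within either, and its log2 fold change was -0.54 ± 0.10 (95% interval -0.75 to -0.33, adjusted p = 0.187). Cyr61 averaged 91.3 ± 13.2 CPM in Cre-positive MI and 133 ± 10.3 CPM in Cre-negative MI libraries, with a log2 fold change of -0.54 ± 0.15 (95% interval -0.87 to -0.21, adjusted p = 0.252). An exact permutation test of 3 libraries against 3 cannot give a p below 0.1, so none was run for single genes.

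Wisp1 and Wisp2 were each called in 2 of 20 settings. DESeq2 called 177 genes (1.57% of those it adjusted), Wisp1 (adjusted p = 0.00022) and Wisp2 (0.000611) among them, and left Cyr61 at 0.0561. By limma on log2(FPKM + 1) 0.307% of genes were called, with Wisp1 and Wisp2 at an adjusted p of 0.047, whereas limma on log2(FPKM + 0.1) called 0 genes and left them at 0.278 and 0.264. Without Cre-positive sham replicate 2 edgeR called 3 genes (0.0217%), and Wisp1 (0.0521) and Wisp2 (0.0592) stayed just outside. The authors' deposited table, in which 4.44% of genes had an adjusted p under 0.05, held Wisp2 at a log2 fold change of -0.79 (adjusted p = 1.68e-05), Wisp1 at -0.53 (0.000129) and Cyr61 at -0.53 (0.00211).

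Ctgf averaged 446 ± 58.4 CPM in Cre-positive MI and 511 ± 62.15 CPM in Cre-negative MI libraries. Its groups overlapped, and the log2 fold change of -0.20 ± 0.30 had a wide 95% interval, -0.85 to 0.46, on both sides of 0. The spread of a gene is fitted over all 12 libraries, sham libraries included. Without Cre-positive sham replicate 2 the value of Ctgf after MI was -0.18 ± 0.175. Nov averaged 6.44 ± 1.49 CPM in Cre-positive MI and 5.34 ± 1.52 CPM in Cre-negative MI libraries, a log2 fold change of 0.27 ± 0.24 (95% interval -0.25 to 0.78). It was the only member with a higher mean in Cre-positive MI hearts, within its spread. With 1 library left out the value of Nov lay between 0.07 and 0.51 and that of Ctgf between -0.31 and -0.11.

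Summed markers of fibroblasts and of macrophages also lay lower in Cre-positive MI than in Cre-negative MI hearts, without overlap, as given above. Of the 8 fibroblast and 6 macrophage markers 0 were called by edgeR, with medians of -0.156 and -0.38 on the log2 scale. The 7 myofibroblast markers summed to 1793 to 2130 CPM in Cre-positive MI and 3083 to 3507 CPM in Cre-negative MI libraries. Postn, whose locus carries the recombinase, averaged 635 CPM in Cre-positive MI and 1616 CPM in Cre-negative MI libraries, and the other 6 markers summed to 1190 to 1456 CPM and 1555 to 1834 CPM. By edgeR 0 of the 7 myofibroblast markers were called. Without Cre-positive sham replicate 2, 1 was called lower, where 0.0217% of all tested genes were called in either direction. The 7 cardiomyocyte markers ran the other way, at 54030 to 65110 CPM in Cre-positive MI against 38110 to 52920 CPM in Cre-negative MI libraries. With the presence of Y-linked reads as a covariate, the log2 fold change of Wisp2 was -0.65 ± 0.19, that of Wisp1 -0.59 ± 0.13 and that of Cyr61 -0.57 ± 0.19. Each had an adjusted p of 0.405 by edgeR in that fit. The part of cell composition in these differences was not tested.

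After sham surgery Wisp2 was again lower in every Cre-positive library than in every Cre-negative one. It averaged 3.83 ± 0.776 CPM in Cre-positive sham and 8.42 ± 1.67 CPM in Cre-negative sham libraries, a ratio of 0.455. The log2 fold change was -1.14 ± 0.19 (95% interval -1.56 to -0.73, adjusted p = 0.104). It was 1 of 5 members whose libraries stood wholly lower, as did 5.15% of tested genes. Called by edgeR were 0 of 5 members and 7 of 13678 genes (0.0512%), with 8.22% at an unadjusted p under 0.05. DESeq2 called Wisp2 (adjusted p = 0.000227) among 0.292% of genes, and limma on log2(FPKM + 0.1) called it (0.0403) among 0.0585%. It was called in these 2 of 20 settings and not by limma on log2(FPKM + 1) (0.0837). In the authors' deposited table Wisp2 stood at -1.14 with an adjusted p of 0.16, and 0.0727% of genes were under 0.05.

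Cyr61 averaged 51.7 ± 4.75 CPM in Cre-positive sham and 69.45 ± 14.9 CPM in Cre-negative sham libraries. Cre-negative sham replicate 1, at 53.7 CPM, lay inside the Cre-positive range, and the log2 fold change of -0.42 ± 0.16 was not called (95% interval -0.76 to -0.09, adjusted p = 0.582). For Ctgf the order was turned round, with 276 ± 154 CPM in Cre-positive sham and 163 ± 32.2 CPM in Cre-negative sham libraries. That difference, 0.76 ± 0.31 on the log2 scale (adjusted p = 0.587), was 0.25 ± 0.20 without Cre-positive sham replicate 2. Wisp1 (-0.18 ± 0.13) and Nov (0.20 ± 0.26) overlapped between the genotypes after sham surgery.

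Summed fibroblast markers lay lower in Cre-positive sham hearts too, as given above, without overlap. Of the 8 markers 0 were called by edgeR. Their median log2 fold change was -0.569, and -0.316 without Cre-positive sham replicate 2. By edgeR 3 of the 7 myofibroblast markers, Postn, Tnc and Cthrc1, were called lower, as were 0.0512% of all tested genes. Summed, the markers other than Postn overlapped, at 91.9 to 228 CPM in Cre-positive sham and 144 to 185.0 CPM in Cre-negative sham libraries, and Cthrc1 was under 1 CPM in all 3 Cre-positive sham libraries. With Y-linked reads as a covariate, Wisp2 stood at -0.98 ± 0.22 after sham surgery (adjusted p = 0.599 by edgeR). The part of these markers in the level of Wisp2 was not tested.

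Order of level across the 4 groups differed by member. Wisp2 held 4 separate ranges, at 21.3 to 25.1 CPM in Cre-positive MI, 36.4 to 45.1 CPM in Cre-negative MI, 2.98 to 4.49 CPM in Cre-positive sham and 7.39 to 10.35 CPM in Cre-negative sham libraries. Its means were thus ordered Cre-negative MI, Cre-positive MI, Cre-negative sham and Cre-positive sham, high to low. Of all tested genes, 5.15% had Cre-positive sham libraries wholly below Cre-negative sham libraries. The share of genes with 4 separate ranges was not counted, so the order is a description. Wisp1 followed the same order of means, but its 2 sham groups overlapped. For Cyr61, in the same order again, Cre-positive MI overlapped with Cre-negative sham, which overlapped with Cre-positive sham. Ctgf was highest in Cre-negative MI, then Cre-positive MI, Cre-positive sham and Cre-negative sham libraries, and each group overlapped with the next. Cre-positive MI overlapped with Cre-positive sham only through replicate 2 of the latter (449 CPM, against 226 and 152 CPM in replicates 1 and 3). Nov was highest in Cre-positive MI, then Cre-negative MI, Cre-positive sham and Cre-negative sham libraries, again with overlap at each step.

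Whether the response to infarction itself differed between the genotypes was tested as an interaction. By edgeR none of the 5 members was called, nor was any of the 13678 genes (0%), while 8.16% of genes had an unadjusted p under 0.05. DESeq2 called 32 of the 8900 genes it adjusted (0.36%), none of them a member, and gave Nov no adjusted p. For Ctgf the log2 fold change after MI was smaller in Cre-positive hearts, with a difference of -0.96 ± 0.43 (95% interval -1.89 to -0.02, adjusted p = 0.609), and without Cre-positive sham replicate 2 the difference was -0.43 ± 0.26. Wisp1 differed by -0.36 ± 0.16 (95% interval -0.71 to -0.01, adjusted p = 0.609), and by -0.47 ± 0.16 without that library. Wisp2 (0.34 ± 0.24), Cyr61 (-0.12 ± 0.22) and Nov (0.06 ± 0.35) had intervals on both sides of 0. The contrasts share libraries with each other, so their values are given side by side and were not compared further.

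**Figure D3:**
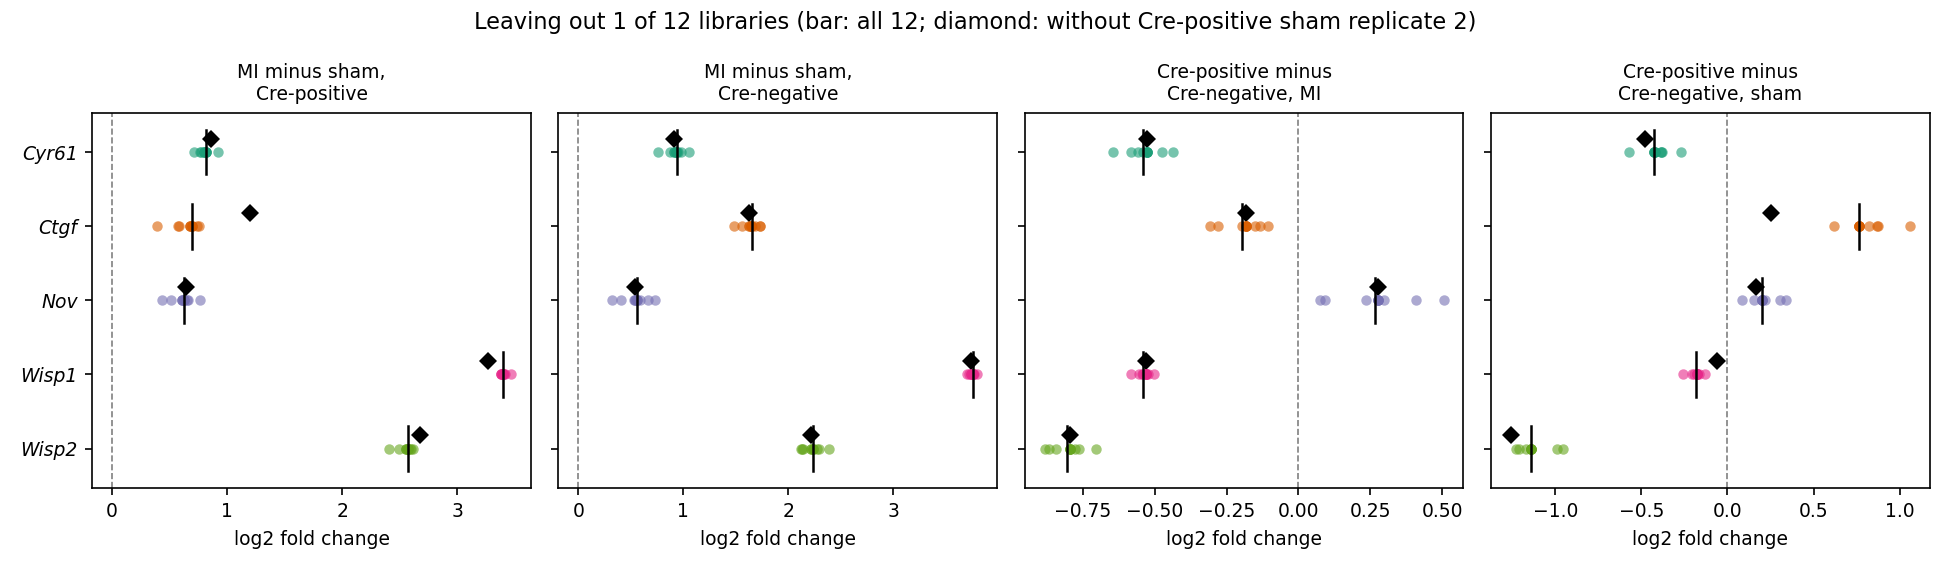
Log2 fold changes of the 5 CCN genes with each of 12 libraries left out in turn (points), with all 12 (vertical bars) and without Cre-positive sham replicate 2 (diamonds), in 4 contrasts with horizontal axes in log2 units. Ctgf moves with that library, at 1.195 against 0.69 for injury in Cre-positive hearts and at 0.25 against 0.76 for genotype after sham surgery. The points of Wisp1 after MI stay between 3.27 and 3.47 in Cre-positive hearts and between 3.704 and 3.803 in Cre-negative hearts.

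The make-up of the family's RNA was not the same in all groups. Ctgf made up 72.6 ± 0.862% of the summed FPKM of the 5 members in Cre-positive MI, 67.1 ± 2.02% in Cre-negative MI, 76.5 ± 8.41% in Cre-positive sham and 61.6 ± 6.91% in Cre-negative sham libraries (SD, n = 3). Cyr61 made up 17.8 ± 1.05, 21.0 ± 1.36, 19.7 ± 6.80 and 31.7 ± 6.01% in the same groups. Wisp2 made up 5.06 ± 0.221, 7.18 ± 1.10, 1.66 ± 0.694 and 4.48 ± 1.43% and Wisp1 made up 3.46 ± 0.457, 4.07 ± 0.590, 0.674 ± 0.349 and 0.862 ± 0.0641%. Each infarcted heart thus gave a larger share to Wisp1 than any sham heart did. In Cre-positive sham replicate 2 Ctgf made up 84.7%, against 77.0% and 67.9% in replicates 1 and 3 of that group. These shares are descriptions with no test.

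Within a library, Ctgf exceeded Cyr61 by a factor of 3.82 to 4.36 in Cre-positive MI and 2.9 to 3.43 in Cre-negative MI libraries, in FPKM. In Cre-positive sham libraries the factor was 3.91, 6.56 and 2.56, and in Cre-negative sham libraries it was 2.72, 1.88 and 1.48. The ratio of these 2 targets of YAP was thus higher in every Cre-positive MI library than in any Cre-negative MI library, and Cre-negative sham hearts came closest to equal amounts. Wisp1 reached 0.602 to 0.737 of the FPKM of Wisp2 in Cre-positive MI and 0.499 to 0.628 in Cre-negative MI libraries, and 0.28 to 0.49 in Cre-positive sham and 0.15 to 0.237 in Cre-negative sham libraries. The ratios of the genotypes overlapped after MI and did not after sham surgery. Summed over the family, FPKM averaged 268 ± 36.7 in Cre-positive MI, 348 ± 40.3 in Cre-negative MI, 129.7 ± 58.05 in Cre-positive sham and 102 ± 17.3 in Cre-negative sham hearts. FPKM is not scaled by TMM, and the median gene was higher by 0.24 on the log2 scale after MI in FPKM than in TMM-scaled counts, in both genotypes.

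**Figure D4:**
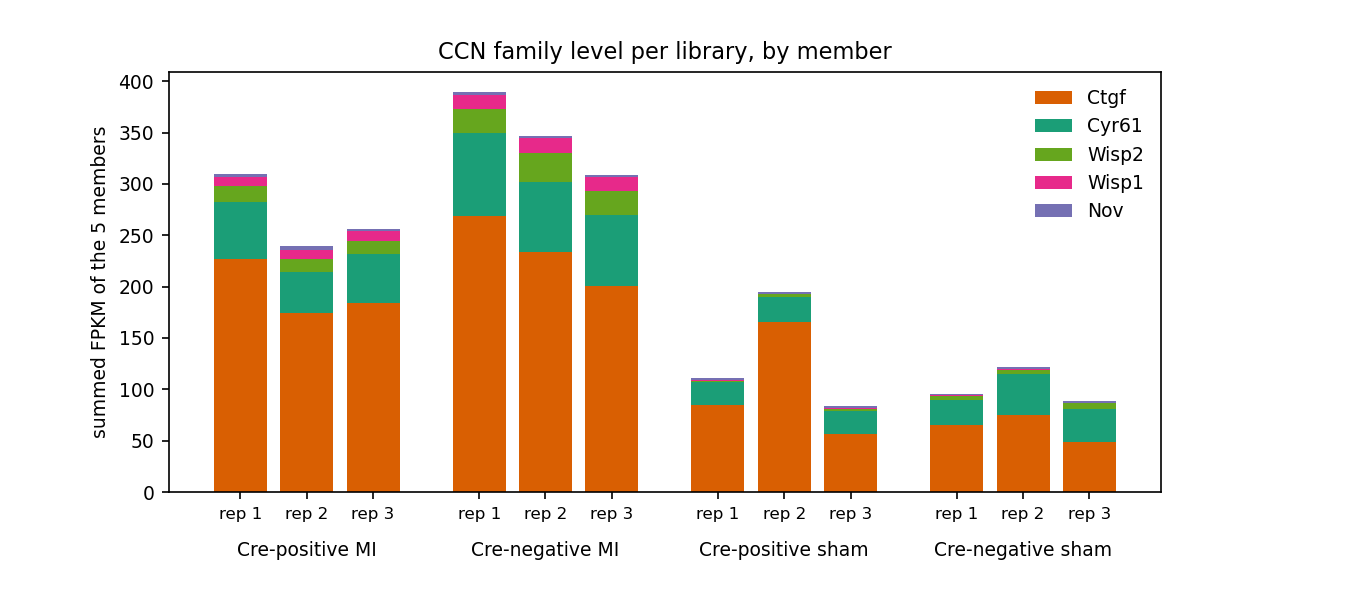
Summed FPKM of the 5 CCN genes in each of 12 libraries, as stacked bars from 0 coloured by gene, grouped by genotype and surgery. Ctgf is the largest part of every bar, and its part in Cre-positive sham replicate 2 (84.7%) is the largest of the 12.

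Profiles most like those of the members were sought among 12129 genes whose log2 CPM averaged 1 or more, by the root mean square difference of log2(CPM + 0.5) over 12 libraries after centring each gene on its own mean. Nearest to Wisp1 were the lipoprotein receptor gene Lrp8 (0.182), Cks2 (0.186), which encodes a subunit of cyclin-dependent kinases, and Ckap2 (0.198), a gene of the mitotic spindle. These 3 genes passed the filter through their MI levels, 7.49 to 13.25 CPM, and averaged 0.184 to 0.474 CPM in the sham groups, where 3 counts are worth 0.2205 to 0.2925 CPM. The pseudocount of 0.5 sets much of their sham values, so their likeness to Wisp1 says little of the size of the rise. Nearest to Wisp2 were the retinaldehyde dehydrogenase gene Aldh1a3 (0.256), the chromatin remodeller gene Hells (0.294) and the condensin gene Smc2 (0.313). Aldh1a3 averaged 0.791 and 1.586 CPM, and Hells 0.439 and 0.682 CPM, in Cre-positive and Cre-negative sham hearts. The pseudocount thus weighs on the sham values of Aldh1a3 and Hells too. Katnbl1 (0.146), G2e3 (0.148) and Cd302 (0.166) were nearest to Cyr61. Arid5a (0.197), the glutathione peroxidase gene Gpx3 (0.202) and the amino acid transporter gene Slc7a5 (0.23) were nearest to Ctgf, and Abhd15 (0.162), Pon2 (0.184) and Tprn (0.199) to Nov. No member was among the 3 nearest of another. Between members, the smallest differences were those of Cyr61 and Nov (0.511), Cyr61 and Ctgf (0.545) and Ctgf and Nov (0.59), with Wisp1 and Wisp2 at 0.691. These differences are not scaled by how much a gene changes, and ranks among all ranked genes gave another order. Wisp2 ranked 447th nearest to Wisp1, and Wisp1 966th to Wisp2. Nov ranked 4089th to Cyr61 and Cyr61 7054th to Nov. Ctgf ranked 4813th to Cyr61 and 8681th to Nov, while Cyr61 ranked 1237th and Nov 1789th to Ctgf. All these profiles share the 12 libraries and the split by surgery, so likeness is a description.

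Around the family, genes for its receptors and for its regulators were counted list by list, with calls by edgeR over all tested genes. Of all tested genes 25.7% were higher and 19.5% lower after MI in Cre-positive hearts, and 29.9% and 24.4% in Cre-negative hearts. Of 10 integrin subunits that bind CCN proteins 9 were tested, and 8 of 9 rose after MI in Cre-positive hearts and 9 of 9 in Cre-negative hearts, with medians of 0.97 and 1.26 on the log2 scale against 0.0153 and 0.0237 over all genes. The beta subunit gene Itgb2 of leukocyte integrins rose by 3.35 ± 0.21 in Cre-positive and 3.26 ± 0.21 in Cre-negative hearts and its partner Itgam, an alpha subunit gene of macrophages and neutrophils, by 3.10 ± 0.38 and 3.22 ± 0.38. The vitronectin receptor subunit genes Itgav (1.11 ± 0.11 and 1.04 ± 0.10) and Itgb3 (1.825 ± 0.23 and 2.91 ± 0.25) rose as well, while Itgb5 stood at 0.04 ± 0.17 in Cre-positive hearts. Its rise in Cre-negative hearts, 0.50 ± 0.17, lost the call without MI replicate 1 or 2 or sham replicate 2 or 3 of that genotype (adjusted p up to 0.0868).

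Other receptors and co-receptors (12 genes, medians 0.872 and 0.695) rose in 9 cases in Cre-positive hearts and 7 in Cre-negative hearts, where Lrp6, the Wnt co-receptor gene, fell by 0.26 ± 0.10. Its call was lost without any 1 of the MI libraries or Cre-negative sham replicate 2 or 3 (adjusted p up to 0.101). The proteoglycan gene Sdc1 rose by 2.23 ± 0.16 in Cre-positive and 2.59 ± 0.16 in Cre-negative hearts, the endocytic receptor gene Lrp1 by 1.07 ± 0.17 and 1.34 ± 0.17, and Tnfrsf11a, the RANK gene, by 2.17 ± 0.23 and 2.13 ± 0.22. Among 10 growth factors that CCN proteins bind, 3 rose and 1 fell in Cre-positive hearts, and 5 rose and 2 fell in Cre-negative hearts. Their medians were 0.113 and 0.239. The counts in Cre-positive hearts, and the falls in Cre-negative hearts, were close to the shares over all genes. Igf1 rose by 2.92 ± 0.22 and 2.43 ± 0.21, and Tgfb1 by 0.96 ± 0.15 and 1.5 ± 0.16, in Cre-positive and Cre-negative hearts. Vegfa fell in both, by 0.52 ± 0.17 and 0.54 ± 0.17 on the log2 scale. Its call was lost in Cre-positive hearts without Cre-positive MI replicate 1 or 2 (adjusted p up to 0.0849) and in Cre-negative hearts without MI replicate 1 or sham replicate 3 of that genotype (up to 0.0699).

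Regulators were called in both directions. In the Hippo arm 2 of 12 genes rose and 2 fell in Cre-positive hearts, and 3 rose and 3 fell in Cre-negative hearts, shares near or below those over all genes given above (25.7% higher and 19.5% lower, 29.9% and 24.4%). The cofactor gene Vgll3 rose by 1.97 ± 0.27 in Cre-positive and 1.99 ± 0.26 in Cre-negative hearts and Tead2 by 1.23 ± 0.20 and 1.555 ± 0.20, while Tead1 fell by 0.38 ± 0.11 and 0.48 ± 0.11. The call of Tead1 in Cre-positive hearts was lost without Cre-positive MI replicate 1 (adjusted p = 0.0729). In the TGF-beta arm 6 of 10 genes rose and Smad4 fell in each genotype. The call of Smad4 in Cre-negative hearts was lost without MI replicate 2 or 3 or sham replicate 1 or 3 of that genotype (adjusted p up to 0.0804). The ligand gene Tgfb3 rose by 1.95 ± 0.15 in Cre-positive and 1.90 ± 0.14 in Cre-negative hearts, and the receptor gene Tgfbr1 by 1.10 ± 0.14 and 1.015 ± 0.14. Of 9 genes of the serum response factor and hormone arm, 2 rose and 3 fell in Cre-positive hearts, and 2 rose and 1 fell in Cre-negative hearts. The angiotensin receptor gene Agtr1a fell by 1.02 ± 0.13 and 1.21 ± 0.13, and the cofactor gene Mkl1 rose by 0.83 ± 0.15 and 1.10 ± 0.15.

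Other targets of YAP and TEAD, 22 of 25 tested, showed 11 rises and 4 falls in Cre-positive hearts and 12 rises and 6 falls in Cre-negative hearts, with medians of 0.281 and 0.643. The falls were about as frequent as over all genes (19.5% and 24.4%). Myof, a membrane repair gene, rose by 2.65 ± 0.18 in Cre-positive and 2.91 ± 0.18 in Cre-negative hearts and F3, which encodes tissue factor, fell, by 0.89 ± 0.14 and 1.18 ± 0.14 on the log2 scale. Of 14 other matricellular genes 8 rose in Cre-positive and 9 in Cre-negative hearts, and 0 fell with all 12 libraries. Spp1, the osteopontin gene, rose by 9.61 ± 0.31 and 7.88 ± 0.27, and the SPARC gene Sparc by 2.58 ± 0.15 and 2.44 ± 0.15. Of 8 tested proteases reported to cleave CCN proteins 5 rose in Cre-positive and 4 in Cre-negative hearts, among them Mmp14 (3.50 ± 0.24 and 3.75 ± 0.24) and Adamts4 (3.96 ± 0.30 and 3.98 ± 0.28). Without Cre-positive sham replicate 2, the counts of rises in Cre-positive hearts were 7 for integrin subunits, 7 for other receptors, 4 for growth factors (with 2 falls), 9 for other matricellular genes and 6 for proteases. In Cre-negative hearts 9 other matricellular genes then rose and 3 fell, and 5 proteases rose. Between the genotypes, 0 genes of these lists were called after MI and 0 in the interaction with all 12 libraries. Without Cre-positive sham replicate 2, 1 of the 14 other matricellular genes was called lower after MI, where 0.0217% of tested genes were called. After sham surgery 3 of 14 matricellular genes, Postn, Tnc and Spp1, were called lower in Cre-positive hearts, as were 0.0512% of all tested genes. They were lower by 3.36 ± 0.32, 3.22 ± 0.32 and 2.56 ± 0.35 on the log2 scale. Spp1 lost its call without Cre-positive sham replicate 1 or 2 or Cre-negative sham replicate 1 or 3 (adjusted p up to 0.112). All 3 lost theirs when only these 2 groups were fitted (adjusted p of 0.201, 0.201 and 0.391 by edgeR).

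**Figure D5:**
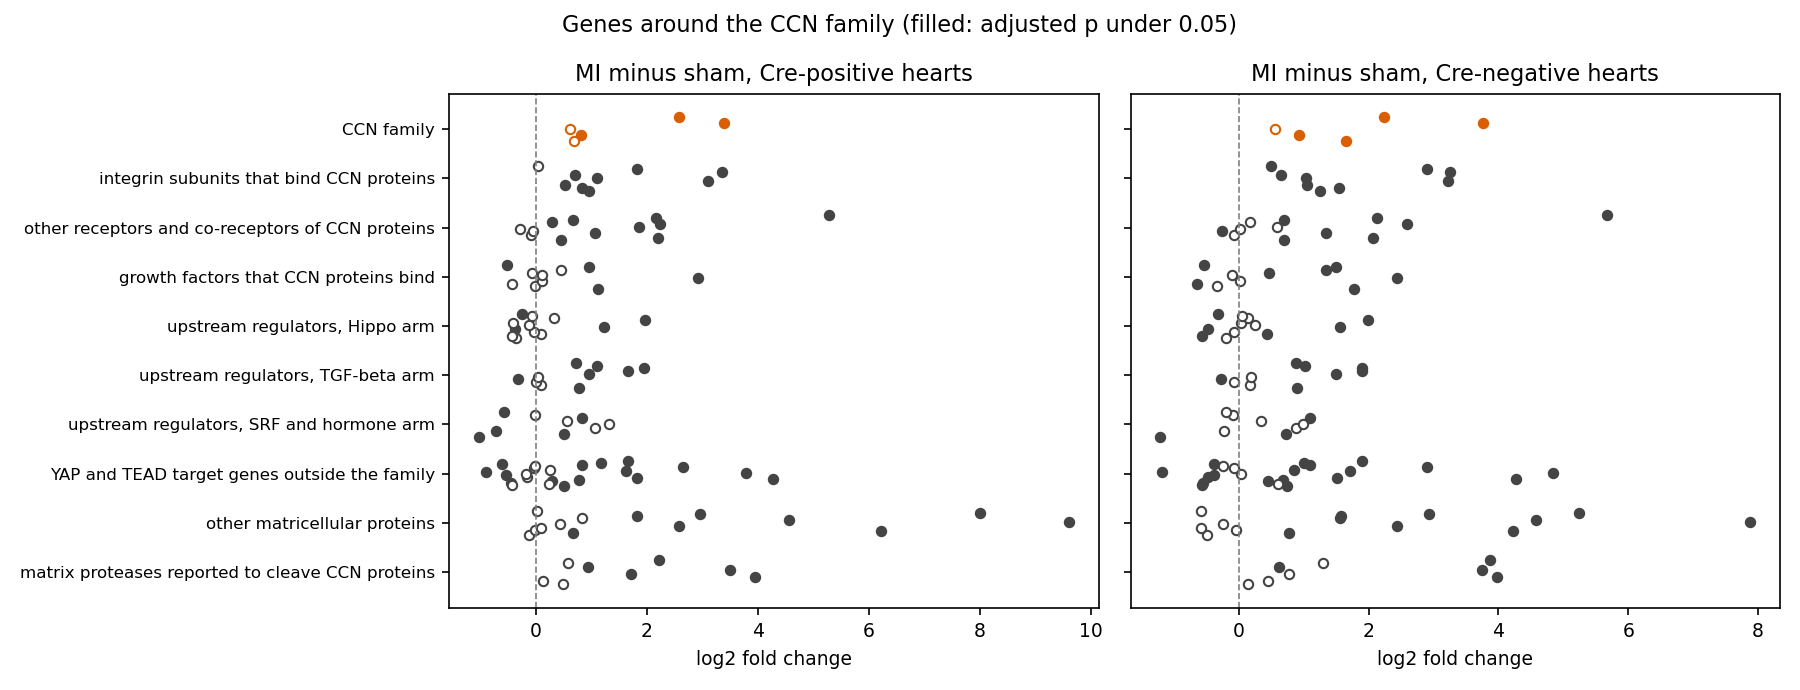
Log2 fold changes after MI of the CCN genes and of the genes in 9 lists around them, in Cre-positive hearts (left) and Cre-negative hearts (right). Points are genes, filled for an adjusted p under 0.05 by edgeR, and the dashed line marks 0. The integrin subunits lie at or right of 0 in both panels, while the Hippo arm lies on both sides of it.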

How the data were processed

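RNA of left ventricle was sequenced in 12 libraries, 3 per group, and deposited tables of each library and of 4 comparisons were used. The authors' expected counts and FPKM per gene were made with Bowtie2 2.2.5 and RSEM 1.2.12 on mm10, per the submitters' processing notes, and 74% of the expected counts were whole to 2 decimals. The authors' deposited comparison tables give log2 fold changes and adjusted p-values, and are named by the submitters as made with DESeq2, with no further settings given in the sources used here.

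Expected counts were rounded to whole numbers. Genes with too few counts (edgeR's filterByExpr, minimum count 10) were removed, 3793 of 17471. A quasi-likelihood model with 1 mean per group was fitted to all 12 libraries with TMM scaling (edgeR 4.0.16, R 4.3.3), and p-values were adjusted by Benjamini-Hochberg over 13678 genes, with a call at an adjusted p under 0.05. Members and lists were chosen with earlier results of these data known, so a list is described by its counts and median alone. Lists covered integrin subunits, other receptors and growth factors that bind CCN proteins, Hippo, TGF-beta and serum response factor arms, targets of YAP and TEAD, other matricellular genes and proteases. Named list genes were taken from the 4 called genes with the smallest p per list and contrast and up to 2 that ran against the majority. Itgb5 was added after its values were seen.

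Alternatives were RLE scaling, no filter, DESeq2 1.42.0, limma 3.58.1 on log2(FPKM + 0.1) and log2(FPKM + 1), fits of 2 groups, a replicate block and each library left out. A covariate for Y-linked reads and list counts without single libraries were added after seeing the data. Scripts were tested on simulated data. Depth differed 1.48-fold between libraries, and the SDs of low genes such as Nov include counting error. Coordinates are those of RefSeq GRCm38.p6, the assembly of mm10, and exons and codons those of GENCODE. Counting by strand is not given in the sources used here.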

Additional observations from a re-analysis of the deposited data

How the results depend on the processing

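The calls of Wisp1, Wisp2 and Cyr61 after MI in both genotypes, and of Ctgf after MI in Cre-negative hearts, held in 20 of 20 settings. For the rest the cause of each change was not tested. The log2 fold change of Ctgf in Cre-positive hearts passed the test with a replicate block (0.7911, adjusted p = 0.0306 by edgeR, 45% of genes called), with limma at both pseudocounts (1.061 and 1.052) and without Cre-positive sham replicate 2, and ranged between 0.3865 and 1.195 with 1 library left out. Nov passed with limma (0.7935 and 0.5662 in Cre-positive, 0.744 and 0.5157 in Cre-negative hearts) and ranged between 0.4303 and 0.7647 and between 0.3198 and 0.7335. The FPKM scale moved the median gene by 0.24 and 0.17 at the 2 pseudocounts in Cre-positive hearts, and relative to it Ctgf stood at 0.82 and 0.88 and Nov at 0.56 and 0.40.

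After MI, genotype calls numbered 177 with DESeq2, 1 with only 2 groups fitted and 0 to 3 with 1 library left out, against 0. Wisp1 was called by DESeq2 (-0.5411) and limma (-0.5582 on log2(FPKM + 1)), as was Wisp2 (-0.8066 and -0.8262). After sham surgery there were 36 with DESeq2, 0 with only 2 groups fitted and 3 to 8 with 1 library left out (3 without Cre-negative sham replicate 1), against 7. There Wisp2 passed with DESeq2 (-1.134) and limma (-1.148 on log2(FPKM + 0.1)). The interaction had 2 calls without the filter, 32 with DESeq2 and 0 to 1 with 1 library left out. Its sign turned for Cyr61 (-0.2553 to 0.04146) and Nov (-0.1274 to 0.3028) with 1 library left out, Nov at -0.1274 without Cre-positive MI replicate 2, -0.1115 without Cre-negative MI replicate 3, -0.02492 without Cre-positive sham replicate 1 and -0.05967 without Cre-negative sham replicate 1.

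The replicate block changed no other call of a member. Deviations of same-numbered libraries correlated at -0.122 to 0.278 over 18 pairs (median 0.016), 3 of them over 0.1. Differently numbered libraries lay at -0.305 to 0.178 over 36 pairs (median -0.00157), 8 of them over 0.1. The highest values, 0.278 and 0.232, were those of MI replicates 1 and 3 between the genotypes, while MI replicate 2 stood at -0.0345. The labels give no pairing, and the main fit used none. Of the called results of listed genes, over DESeq2, RLE scaling, no filter, the replicate block, fits of 2 groups and the Y-linked covariate, 1212 values kept the call, 47 lost it and 0 turned sign. Depth limits Nov and the sham levels of the Wisp genes most.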
